A study of Mus musculus with 18 samples.

Results

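The genes described here are 45 cell cycle genes that dividing cells express, followed in primary mouse muscle cultures that had been switched to differentiation medium. They were listed by symbol, and each was represented by its brightest named probe on the array. A probe was named for 41 of the 45, among 17711 genes named on the array in all. No probe was named for Mki67, Ccnb1, Mcm3 and Kif20a.

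The study knocked down dystrophin by RNA interference in muscle cells grown from the limbs of C57BL/10 mice 3 to 5 days old, strain and age being shared by all groups. The 18 Illumina mouse arrays hold 7 cultures given an siRNA against dystrophin, 7 given an siRNA against firefly luciferase (GL2, the treatment control) and 4 left untreated. The cultures were set up on 4 occasions, with siRNA given on days 2 and 4, differentiation medium from day 4 and RNA taken on day 6. At each occasion cells from different mice were mixed before plating, so that cultures of 1 occasion shared a cell pool. Primary cultures of this kind are not clonal and can hold fibroblasts and other cells beside muscle cells. The target checked the labels: Dmd lay between 8.07 and 8.52 on the 7 dystrophin siRNA arrays, between 10.03 and 10.51 on the GL2 arrays and between 10.05 and 10.32 on the untreated arrays. All levels are log2 normalized bead signals, which can be compared between arrays for 1 probe but not between probes.

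Myoblasts leave the cell cycle when they fuse into myotubes. The differentiating cell then silences the genes that copy DNA and the genes that carry out mitosis, whereas fibroblasts and unfused myoblasts in the same dish can go on dividing. Genes of DNA replication are switched on by E2F factors as a cell enters S phase, and most genes of mitosis are held back until late in the cycle through a promoter element called CHR, often found beside CCAAT boxes. In an RNA pool from a whole culture, fewer dividing cells and less RNA of these genes per cell cannot be told apart.

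A window from 250 bases before to 50 bases after the RefSeq start site was at hand for 37 of the 45 genes (mouse build GRCm38.p6). Both strands were searched for CHR (TTTGAA or TTCGAA), for CCAAT, and for 4 E2F site sequences, TTTCCCGC, TTTCGCGC, TTTGCCGC and TTTGGCGC. A CHR match was present in 17 of the 22 mitosis genes (77.3%) and in 3 of the 15 genes of replication and S phase entry (20.0%), against 19.4% of windows over 27025 genes. An E2F match was present in 6 of the 15 replication and S phase entry genes (40.0%) and in 1 of the 22 mitosis genes (4.55%), against 2.32% of all windows. CHR and CCAAT occurred together in 54.1% of the 37 windows and in 7.70% of all windows. A match is a run of letters and does not show binding. The 250 bases before the start site are given for genes picked as examples, which do not stand for all windows of their kind. Cdk1 (chr10:69352913-69353162, minus strand) and Top2a (chr11:99024190-99024439, minus strand) are mitosis genes. Mcm5 (chr8:75109259-75109508, plus strand) and Mcm6 (chr1:128359706-128359955, minus strand) are replication genes. Capitals mark CHR, CCAAT and E2F matches on either strand.
Cdk1: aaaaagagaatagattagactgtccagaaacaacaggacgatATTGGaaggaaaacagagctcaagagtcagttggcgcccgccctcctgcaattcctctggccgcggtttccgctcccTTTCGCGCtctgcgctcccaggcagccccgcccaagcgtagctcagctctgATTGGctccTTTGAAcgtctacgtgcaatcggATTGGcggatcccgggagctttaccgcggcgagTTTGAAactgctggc
Top2a: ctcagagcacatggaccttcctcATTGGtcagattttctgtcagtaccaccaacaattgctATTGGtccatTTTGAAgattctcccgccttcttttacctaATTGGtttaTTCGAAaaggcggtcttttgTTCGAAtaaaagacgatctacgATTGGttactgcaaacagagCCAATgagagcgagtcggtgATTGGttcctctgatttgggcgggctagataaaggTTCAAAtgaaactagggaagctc
Mcm5: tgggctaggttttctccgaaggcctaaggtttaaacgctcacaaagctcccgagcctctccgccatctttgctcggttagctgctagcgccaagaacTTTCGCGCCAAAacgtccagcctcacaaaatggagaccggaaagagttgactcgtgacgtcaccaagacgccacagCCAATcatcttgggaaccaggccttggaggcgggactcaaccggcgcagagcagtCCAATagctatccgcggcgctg
Mcm6: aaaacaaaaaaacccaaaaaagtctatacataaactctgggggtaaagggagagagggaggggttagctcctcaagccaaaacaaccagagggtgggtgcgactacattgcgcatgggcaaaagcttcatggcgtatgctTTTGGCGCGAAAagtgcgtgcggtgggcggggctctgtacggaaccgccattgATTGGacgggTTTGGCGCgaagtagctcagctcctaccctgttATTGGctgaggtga
The Cdk1 window holds 2 CHR matches, at 71 and 15 bases before the start, with CCAAT boxes nearby and 1 E2F match farther upstream. It is the 1 window of the 22 mitosis genes with an E2F match. The Mcm5 and Mcm6 windows hold overlapping E2F matches and CCAAT boxes but no CHR match. Among the replication genes, the windows of Mcm2, Mcm7 and Cdc45 do hold CHR matches.

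Most of the list was still measurable 48 h after differentiation was induced. A probe counted as detected on an array when its deposited detection p-value was under 0.05. By this measure 31 of the 41 genes were detected on all 18 arrays. The share over all probes was 32.2%, but it includes probes without a named gene and the dimmer probes of a gene. Each listed gene was represented by its brightest probe, so these shares cannot be compared directly. The share among the brightest probes of all named genes was not counted. Ccne2, an S phase cyclin, was detected on 16 arrays, the checkpoint kinase Bub1 on 12, the helicase activator Cdc45 on 5 and the cytokinesis regulator Racgap1 on 1. The remaining 6, Gmnn, Ccna2, Ccnb2, Ube2c, Kif11 and Hmmr, were detected on no array. The cultures carried the labelled tissue, since 8 of 8 measured genes of differentiated skeletal muscle were detected on all arrays, with a list mean of 13.75 to 13.81 on untreated, 13.80 to 13.94 on GL2 and 13.62 to 13.87 on dystrophin siRNA arrays.

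The mean level of the list was lowest in untreated cultures and highest after dystrophin siRNA. The mean level over the 41 genes was 7.57, 7.80, 7.85 and 7.88 on the 4 untreated arrays (7.77 ± 0.14, SD, n = 4). On GL2 arrays it ran from 7.79 through a median of 7.89 to 8.03 (7.89 ± 0.08, SD, n = 7). On dystrophin siRNA arrays it ran from 7.90 through a median of 7.97 to 8.06 (7.97 ± 0.05, SD, n = 7). Every dystrophin siRNA array lay above every untreated array on this mean, and the GL2 arrays overlapped both. Untreated array 1 stood apart within its group, with 35 of 41 genes below their group mean. The 14 genes of replication, nucleotide supply and S phase entry that were detected throughout had means of 9.12, 9.20 and 9.30 in untreated, GL2 and dystrophin siRNA cultures. On these genes the dystrophin siRNA arrays (9.21 to 9.38) overlapped the untreated arrays (8.96 to 9.27). The 17 detected mitosis genes had means of 9.12, 9.25 and 9.37 in the same order. On the mitosis genes the dystrophin siRNA arrays (9.28 to 9.47) lay above the untreated arrays (8.85 to 9.26).

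**Figure D1:**
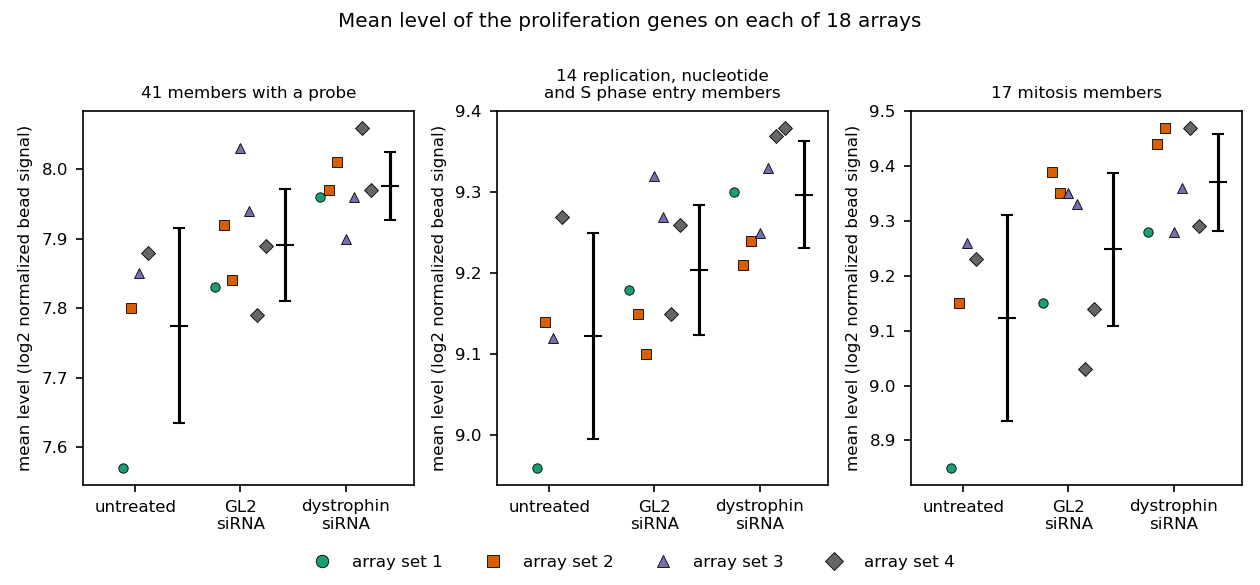
Mean log2 normalized bead signal on each of 18 arrays, for the 41 genes with a probe and for the replication and mitosis genes detected on all arrays, with 1 point per array, colour and shape giving the array set and bars the group mean ± SD. Untreated array 1 is lowest in all 3 panels, at 7.57 in the first.

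With dystrophin siRNA against untreated cultures, 38 of the 41 genes had a fitted change above 0, but none passed the test. The median change was 0.19 on the log2 scale, against 0.01 over all probes, and a change above 0 was seen for 52.7% of all probes. At an adjusted p under 0.05 (limma, Benjamini-Hochberg over all 46632 probes), 0 of 41 were called, where 0.907% of all probes were. At an unadjusted p under 0.05, 11 were higher and 0 lower, against 4.83% and 4.54% of all probes. One of the 11, Cdc45, was detected on no untreated array. The 3 fitted below 0 were the S phase activator E2f1 (-0.03) and the undetected Gmnn and Hmmr. Leaving out untreated array 1 took the median change to 0.12, the number above 0 to 36 and the number higher at an unadjusted p under 0.05 to 6 (4.12% of all probes). Of the 31 genes detected on all arrays, 30 had a change above 0 (54.1% of all probes so detected), 10 were higher at an unadjusted p under 0.05 (7.86%) and 4 had dystrophin siRNA wholly above untreated (2.70%). The comparison shares its untreated arrays with the GL2 comparison and its dystrophin siRNA arrays with the comparison of both siRNAs.

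Cdk1, the kinase that starts mitosis, lay nearest the threshold. Its level was 9.41, 9.47, 9.73 and 9.67 on the untreated arrays. It ran from 9.61 through 9.80 to 9.98 on GL2 arrays and from 9.75 through 9.94 to 10.04 on dystrophin siRNA arrays. No dystrophin siRNA array reached down to the untreated range, while GL2 arrays overlapped both. The change against untreated was 0.36 (SE 0.10, 95% interval 0.16 to 0.56, adjusted p = 0.11 by limma), a fold of 1.28. Within the 4 array sets defined further on, it was 0.34, 0.52, 0.17 and 0.32. GL2 siRNA gave 0.23 against untreated (95% interval 0.03 to 0.43, adjusted p = 0.38), and dystrophin siRNA exceeded GL2 siRNA by 0.13 (95% interval -0.04 to 0.30, adjusted p = 0.56). Cdk1 was higher with dystrophin siRNA in 7 of 7 arrays paired by number, by 0.01 to 0.21 (share of all probes not counted). Where only the 19437 probes detected on at least 4 arrays entered the adjustment, the adjusted p of the first comparison was 0.024, and 3.79% of those probes were then called.

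Aurka, a kinase of centrosome maturation and spindle assembly, is given because its change had the next smallest p of the genes detected on all arrays, and was chosen after its values were seen. The untreated arrays gave 8.54, 8.64, 8.85 and 8.92. The dystrophin siRNA arrays ran from 8.88 through 9.16 to 9.26, so that the lowest fell within the untreated range. The change was 0.39 (SE 0.11, 95% interval 0.16 to 0.62, adjusted p = 0.14). Where only the probes detected on at least 4 arrays entered the adjustment, the change was still 0.39, with an adjusted p of 0.04 by limma. GL2 arrays ran from 8.71 through 8.90 to 9.13, with a change of 0.18 (adjusted p = 0.6).

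Over the 6 mitotic kinases, cyclins and regulators detected on all arrays the median change was 0.34, with a range of 0.25 to 0.39. Birc5, the survivin subunit of the chromosomal passenger complex, had a fitted change of 0.34 (SE 0.11, adjusted p = 0.21), with untreated arrays at 9.69, 10.00, 10.16 and 10.15 and dystrophin siRNA arrays between 10.20 and 10.55. Plk1, a kinase of mitotic entry and spindle assembly, had a fitted change of 0.27 (95% interval 0.03 to 0.51, adjusted p = 0.43). Aurkb, the enzyme of the same passenger complex, had 0.25 (95% interval -0.02 to 0.52), and Cdc25c, the phosphatase that activates Cdk1, had 0.33 (95% interval -0.05 to 0.72). The cyclins Ccna2 and Ccnb2 were detected on no array and have no measured change.

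Top2a, the topoisomerase that untangles chromosomes, stood at 8.67, 8.88, 8.95 and 8.93 on untreated arrays. It ran from 8.79 through 9.02 to 9.14 on GL2 arrays and from 8.84 through 9.0 to 9.28 on dystrophin siRNA arrays, so that all 3 groups overlapped. Its change was 0.18 (SE 0.10, 95% interval -0.03 to 0.39, adjusted p = 0.62), while another, dimmer Top2a probe gave 0.42 (SE 0.14, 95% interval 0.14 to 0.71, adjusted p = 0.21). Cenpe, the kinesin that links centromeres to microtubules, gave 9.51, 9.79, 9.75 and 9.65 untreated and 9.91 to 10.17 after dystrophin siRNA, with a change of 0.34 (SE 0.11, adjusted p = 0.22) and no overlap. The centromeric histone Cenpa had a fitted change of 0.25 (95% interval -0.01 to 0.51). Over the 5 kinesins and spindle proteins detected on all arrays the median was 0.18, from 0.09 for Kif23, a motor of the dividing midzone, to 0.30 for Nusap1, which binds spindle microtubules. Over the 3 checkpoint and anaphase genes detected on all arrays it was 0.23, with 0.27 for Mad2l1, 0.23 for Cdc20, the activator of the anaphase-promoting complex, and 0.08 for Bub1b, a checkpoint kinase homologue. Prc1, which bundles midzone microtubules, had 0.22 (95% interval 0.01 to 0.44, adjusted p = 0.5), and Kif22 and Tpx2 had 0.18 each.

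Mcm2, a subunit of the replicative helicase, stood at 9.20, 9.60, 9.35 and 9.49 on untreated arrays, from 9.30 through 9.53 to 9.68 on GL2 arrays and from 9.40 through 9.52 to 9.69 on dystrophin siRNA arrays. The groups overlapped throughout, with a change of 0.12 (SE 0.10, 95% interval -0.08 to 0.32, adjusted p = 0.79). Pcna, the sliding clamp of DNA polymerase, gave 6.24, 6.02, 5.77 and 6.08 untreated, 5.81 to 6.45 with GL2 siRNA (median 6.14) and 5.71 to 6.51 with dystrophin siRNA (median 6.15). Its change was 0.15 (SE 0.14, 95% interval -0.15 to 0.45, adjusted p = 0.83). The median over the 8 detected licensing and replication genes was 0.15. The helicase subunits Mcm4, Mcm5, Mcm6 and Mcm7 had fitted changes of 0.13, 0.17, 0.25 and 0.16, and Cdc6 had 0.12, each with an interval that included 0. Another Mcm6 probe of nearly the same brightness, also detected on all arrays, gave 0.02 (95% interval -0.37 to 0.41) where the one used gave 0.25, and with GL2 siRNA it gave -0.11 against 0.12. Cdt1, which loads the helicase onto DNA, was the one with separate groups, at 9.58 to 9.68 untreated and 9.79 to 10.04 after dystrophin siRNA (change 0.25, SE 0.09, adjusted p = 0.28). By the probes used, Cdk1, Birc5, Cenpe and Cdt1 were the 4 genes of the list in which dystrophin siRNA lay wholly above untreated, where 1.13% of all probes did so. The count depends on the probe. Both other Birc5 probes, also detected on all arrays, overlapped with untreated (changes 0.32 and 0.27, adjusted p = 0.42 and 0.53 by limma). A second Tk1 probe detected on all arrays did not overlap (0.38, adjusted p = 0.23). None lay wholly below, where 1.45% of all probes did.

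Cyclin E, the partner of Cdk2 at S phase entry, was measured by Ccne1 and Ccne2. Ccne1 ran from 8.28 to 8.78 on untreated, 8.48 to 8.75 on GL2 and 8.44 to 8.93 on dystrophin siRNA arrays, overlapping throughout (change of dystrophin siRNA against untreated 0.15, adjusted p = 0.77). Ccne2 ran from 5.14 to 5.38, 4.10 to 5.78 and 4.79 to 6.29 in the same order, with the siRNA arrays on both sides of the untreated ones (0.36, SE 0.27, adjusted p = 0.77).

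Cdc45 was detected on 0 of 4 untreated arrays, 3 of 7 GL2 arrays and 2 of 7 dystrophin siRNA arrays. Its means after GL2 and dystrophin siRNA, 4.80 and 4.70, lay below 5.04, the mean lowest level at which any probe was detected on the untreated arrays, so that no change is given for it against untreated.

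Enzymes of nucleotide supply had a median change of 0.23 over 4 genes. Tyms, which makes thymidylate, stood at 8.67, 9.13, 9.30 and 9.34 on untreated arrays and ran from 9.20 through 9.53 to 9.75 after dystrophin siRNA. Its change was 0.38 (SE 0.13, 95% interval 0.11 to 0.65, adjusted p = 0.25), and 0.24 without untreated array 1, whose value was the lowest of all 18. GL2 siRNA gave 0.31 for Tyms (95% interval 0.04 to 0.58, adjusted p = 0.36). Tk1, the thymidine salvage kinase, had a fitted change of 0.31 after dystrophin siRNA (95% interval 0.02 to 0.61, adjusted p = 0.48). The ribonucleotide reductase subunits Rrm1 and Rrm2 had 0.11 (95% interval -0.06 to 0.29) and 0.15 (95% interval -0.05 to 0.36).

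**Figure D2:**
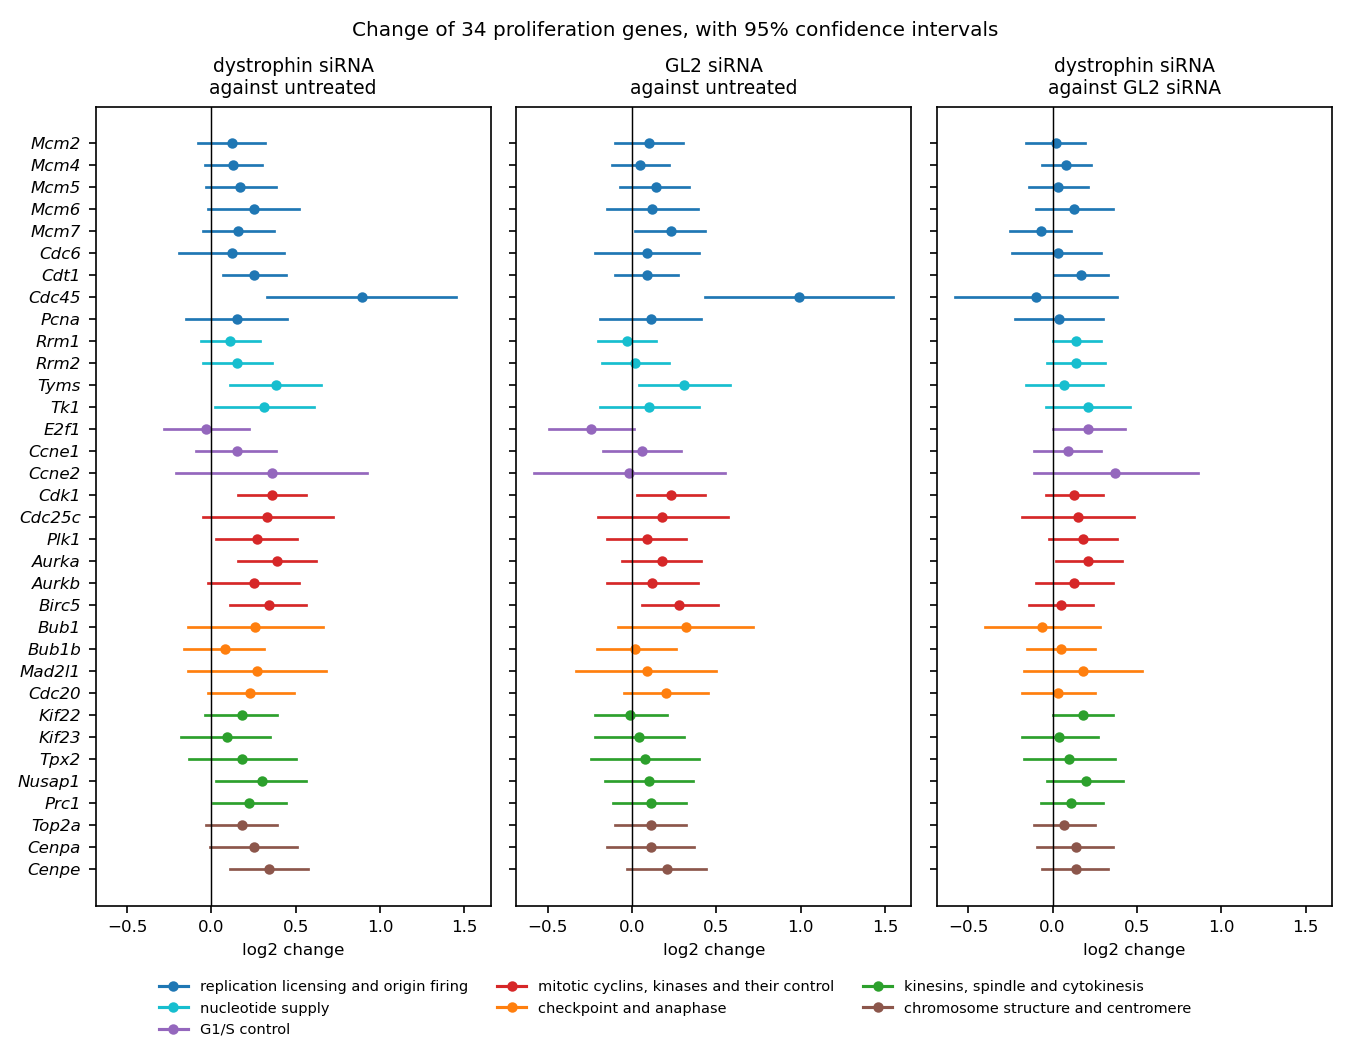
Fitted log2 changes (points) with 95% confidence intervals (lines) of the 34 genes detected on at least 4 arrays, by role, in the 3 comparisons. Most points lie right of 0 in all panels and no gene passed an adjusted p of 0.05, and the points of Cdc45 against untreated are no measured change, since 0 of 4 untreated arrays detected it.

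GL2 siRNA against untreated cultures compares a control siRNA with no siRNA. The median change was 0.10 (all probes 0.01), and 35 of 41 genes lay above 0 (52.2% of all probes). None was called (0.733% of all probes), and at an unadjusted p under 0.05 there were 5 higher and 1 lower (5.61% and 5.44% of all probes). Those higher were Cdk1, Birc5, Tyms, Cdc45 (detected on no untreated array) and Mcm7, a helicase subunit with a change of 0.23 (95% interval 0.02 to 0.43, adjusted p = 0.39). The one lower was Gmnn, an inhibitor of Cdt1, which was detected on no array. By the probes used, it was also the 1 gene with GL2 siRNA wholly below untreated (1.51% of all probes), and 0 of 41 lay wholly above (1.47%). A second Cdc20 probe detected on all arrays did lie wholly above (0.31, adjusted p = 0.43 by limma). Another such Cdc20 probe overlapped (0.14, adjusted p = 0.84 by limma). Of the 31 genes detected on all arrays, 28 had a change above 0 (52.9% of all probes so detected), 4 were higher at an unadjusted p under 0.05 (9.71%) and 0 lay wholly above (3.59%). Without untreated array 1 the median was 0.03, with 28 genes above 0 and 2 higher at an unadjusted p under 0.05 (4.58% of all probes).

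Dystrophin siRNA against GL2 siRNA, the comparison with transfection in both groups, gave a median change of 0.10 (all probes 0.00), with 33 of 41 genes above 0 (50.7% of all probes). None was called, where 3.76% of all probes were, and no gene of the list had separate groups (0.926% of all probes were separate and higher, 1.26% separate and lower). At an unadjusted p under 0.05 there were 3 higher and 0 lower (7.13% and 6.66% of all probes), namely Cdt1 with 0.17 (adjusted p = 0.31), Aurka with 0.21 (adjusted p = 0.31) and E2f1 with 0.21 (adjusted p = 0.36). E2f1, which switches on S phase genes, was below 0 in the comparison of GL2 siRNA with untreated. It stood at 9.87, 9.63, 9.91 and 9.84 on untreated arrays, ran from 9.27 through 9.63 to 9.82 on GL2 arrays and from 9.50 through 9.89 to 9.95 on dystrophin siRNA arrays. Its GL2 change against untreated was -0.24 (95% interval -0.49 to 0.01, adjusted p = 0.48). Dystrophin siRNA exceeded GL2 siRNA for E2f1 in 7 of 7 numbered pairs, by 0.09 to 0.31 (share of all probes not counted). Of the 31 genes detected on all arrays, 30 had a change above 0 (52.1% of all probes so detected), 3 were higher at an unadjusted p under 0.05 (14.1%) and 0 lay wholly above (2.52%).

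**Figure D3:**
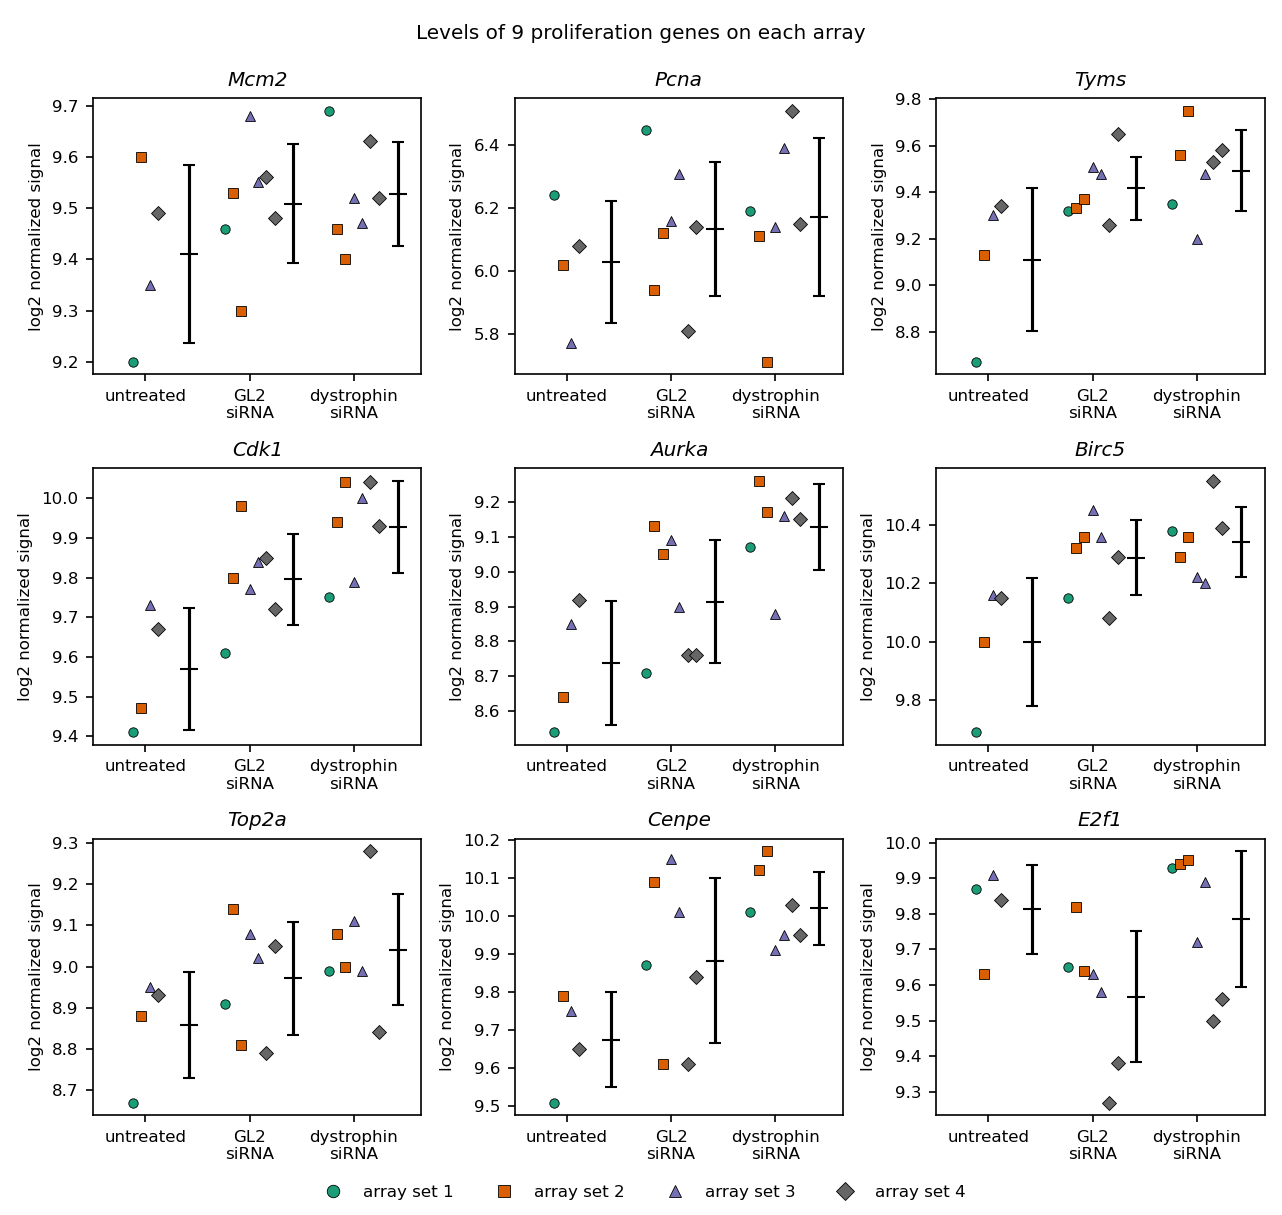
Log2 normalized signal of 9 genes on each array by group, with colour and shape giving the array set and bars the group mean ± SD. Cdk1, Birc5 and Cenpe on dystrophin siRNA arrays lie wholly above the untreated arrays, whereas Mcm2, Pcna and Top2a overlap in all groups.

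Array numbers 1 to 7 recur in both siRNA groups, and same-numbered arrays were compared directly. The mean over the 41 genes was higher with dystrophin siRNA in 6 of the 7 pairs, by 0.13, 0.05, 0.16, 0.02, 0.27 and 0.07 for numbers 1, 2, 3, 5, 6 and 7, and the difference was -0.13 in number 4. Single genes gave 37 of 41 higher in pair 6 and 11 of 41 in pair 4, while 49.6% to 51.8% of all probes were higher in the 7 pairs. Pair 6 joined the highest dystrophin siRNA mean (8.06) to the lowest GL2 mean (7.79), and pair 4 joined the lowest dystrophin siRNA mean (7.90) to the highest GL2 mean (8.03). Cdk1, Aurkb, Rrm1, Rrm2 and E2f1 were higher with dystrophin siRNA in all 7 pairs, by as little as 0.01 for Cdk1, Aurkb and Rrm2. The share of all probes higher in all 7 pairs was not counted, so no background stands beside these genes.

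**Figure D4:**
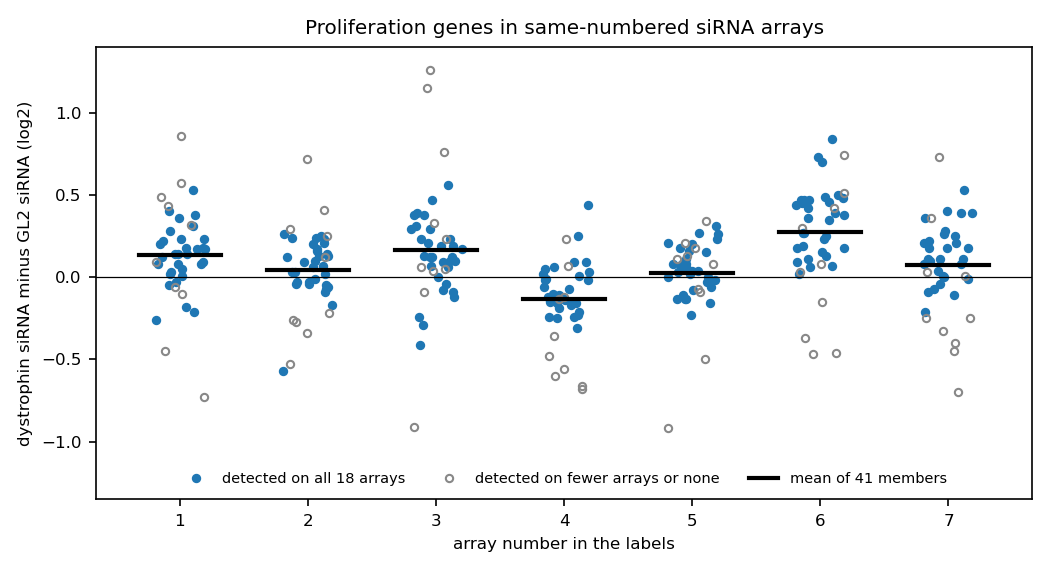
Log2 level with dystrophin siRNA minus that with GL2 siRNA on the array of the same number, for each of the 41 genes (points; open where the gene was not detected on all arrays) and their mean (bars). The mean is above 0 in 6 pairs, highest in pair 6 at 0.27, and -0.13 in pair 4.

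Whether arrays of 1 number deviated together was tested over the 14 siRNA arrays with group in the model. No gene of the list was called (0 of 41; 0.948% of all probes), and 6 of 41 had an unadjusted p under 0.05, where 16.3% of all probes did. Those 6 were Gmnn and Racgap1, which were at or near background, and Bub1, E2f1, Mad2l1 and Cdc6. Mad2l1, which holds the spindle checkpoint, had number means from 6.35 (number 7) to 7.24 (number 3), with an adjusted p of 0.25. Cdc6, which helps load the helicase, had number means from 6.58 (number 2) to 7.21 (number 5), with an adjusted p of 0.29. E2f1 had number means from 9.39 (number 6) to 9.88 (number 2), with an adjusted p of 0.25.

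The 18 arrays also fell into 4 sets by their deviations from group means over 19389 detected probes outside the list. Set 1 held number 1 of each group, set 2 held untreated 2 with siRNA numbers 2 and 3, set 3 untreated 3 with 4 and 5, and set 4 untreated 4 with 6 and 7. The sets come from the data and no label ties them to the 4 occasions. They held 30.5% of the variance of the 41-gene mean within groups. In fits that left out 1 array the sets were found anew. The share was then 9.83% without untreated array 1, 16.1% without untreated array 2 and 53.8% without GL2 array 1. These values do not show what 1 array does to the share of the sets listed above. For single genes detected on all arrays the share of the listed sets ran from 9.08% (Mcm2) to 67.0% (Kif22, a chromosome-arm motor) with a median of 45%. It was 42.5% over all 14994 probes detected on all arrays, which outside the list helped define the sets. Of the 17 mitosis genes detected on all arrays, 14 were lowest in set 1, with deviations from the group means of -0.25 for Tpx2, a spindle assembly factor, and for Cenpa, and -0.17 for Cdk1. Of the 8 replication licensing genes, 6 were lowest in set 2, with -0.17 for the helicase subunit Mcm6 and -0.24 for Cdc6. The share of all probes lowest in each set was not counted, so no background stands beside these counts. Set 1 was the smallest set and held untreated array 1. The mean of the 17 mitosis genes was 8.85 on that array and 9.15 to 9.26 on the other untreated arrays. Dystrophin siRNA minus untreated for the 41-gene mean was 0.39, 0.19, 0.08 and 0.13 in sets 1 to 4, GL2 siRNA minus untreated was 0.26, 0.08, 0.13 and -0.04, and dystrophin siRNA minus GL2 siRNA was 0.13, 0.11, -0.06 and 0.17. With the sets as a block no gene of the list was called in any comparison (1.50%, 2.09% and 5.87% of all probes), and the adjusted p of Cdk1 against untreated was 0.065.

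Marker lists named for other cell types were followed on the same arrays. A list mean does not measure how many cells of that type were present. All 9 measured fibroblast genes were detected on all arrays, with a list mean of 11.45 to 11.67 on untreated, 10.76 to 11.59 on GL2 and 11.04 to 11.86 on dystrophin siRNA arrays, and 86.1% of its variance within groups lay between the sets. The fibroblast probes were among those from which the sets were found, so that this share is partly built in. The macrophage list (5 genes measured, Itgam and Ptprc detected on no array) ran from 7.35 to 7.51, 6.31 to 7.35 and 6.49 to 7.45. The myoblast list (8 genes, Pax7 and Myf5 detected on no array) ran from 8.86 to 8.96, 8.89 to 9.27 and 8.85 to 9.18. The smooth muscle list (4 genes, Cnn1 detected on no array) ran from 7.69 to 8.20, 7.71 to 7.95 and 7.55 to 8.12, the endothelial list (5 genes) from 6.81 to 7.03, 6.60 to 7.04 and 6.85 to 7.13. The adipocyte list (4 genes, Fabp4 detected on no array and Plin1 on 1) ran from 5.26 to 6.32, 5.05 to 6.63 and 5.10 to 6.52, and the Schwann cell list (2 genes) from 6.50 to 7.25, 6.24 to 7.22 and 6.31 to 6.72. The part of these lists in the levels of the cell cycle genes was not tested.

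A second list of other S phase and mitosis genes, 59 of them measured, was followed in the same fits. Against untreated cultures 53 of them lay above 0 after dystrophin siRNA (median 0.21; 52.7% of all probes above 0) and 47 after GL2 siRNA (median 0.12; 52.2%). None was called in either comparison (0.907% and 0.733% of all probes), and at an unadjusted p under 0.05 there were 18 and 8 higher (4.83% and 5.61%). Against GL2 siRNA 44 lay above 0 (median 0.08; 50.7% of all probes) and 1 of 59 was called, where 3.76% of all probes were. It was Ncaph, a subunit of the condensin complex that compacts chromosomes. Ncaph stood at 8.32, 8.21, 8.51 and 8.49 on untreated arrays, from 7.99 through 8.27 to 8.50 on GL2 arrays and from 8.53 through 8.69 to 8.72 on dystrophin siRNA arrays. Dystrophin siRNA lay wholly above both other groups (0.926% of all probes did so against GL2 siRNA and 1.13% against untreated). The change against GL2 siRNA was 0.39 (SE 0.08, adjusted p = 0.011), a fold of 1.31. With the replicate number as a block 2 of the 59 were called, where 5.21% of all probes were. They were Ncaph and the mitotic kinase Melk, which was detected on 2 of the 18 arrays, both with dystrophin siRNA, and has no measured change. Smc2, another condensin subunit, had a change of 0.45 against untreated (SE 0.12, adjusted p = 0.082), and its adjusted p was 0.044 with the sets as a block. The Smc2 probe was itself among those from which the sets were found.

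Of 13 genes that restrain the cycle, 3 passed the test with dystrophin siRNA against GL2 siRNA (3.76% of all probes). Cdkn1a encodes p21, the inhibitor of cyclin-dependent kinases that rises as myoblasts withdraw from the cycle. It stood at 14.57, 14.65, 14.70 and 14.62 on untreated arrays, from 14.76 through 14.87 to 15.29 on GL2 arrays and from 13.73 through 13.98 to 14.34 on dystrophin siRNA arrays. The 3 groups did not overlap. Dystrophin siRNA lay wholly below GL2 siRNA for 1.26% of all probes and wholly below untreated for 1.45%. Cdkn1a fell by 0.91 on the log2 scale with dystrophin siRNA against GL2 siRNA (SE 0.10, adjusted p = 1.2e-05) and by 0.61 against untreated (SE 0.12, adjusted p = 0.016). When untreated array 2, 3 or 4 was left out, the fall against untreated no longer passed (adjusted p = 0.057, 0.071 and 0.055). GL2 siRNA gave 0.30 against untreated (95% interval 0.05 to 0.56, adjusted p = 0.34). Of the 13 brakes on the cycle, Cdkn2b, the inhibitor p15, rose by 0.35 (adjusted p = 0.043) and Gadd45a, a stress-induced growth arrest gene, fell by 0.36 (adjusted p = 0.037) with dystrophin siRNA against GL2 siRNA. These 2 calls held in 5 and 9 of the 18 fits that left out 1 array. The other 10 brakes were not called in the reported fit of this comparison and were not followed in the left-out fits.

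E2f2, an E2F factor in a list of 10 measured G1 genes and chosen after its values were seen, was lower with dystrophin siRNA than with GL2 siRNA by a log2 change of -0.75 (SE 0.10, adjusted p = 0.00013). It stood at 11.27, 11.28, 11.18 and 11.23 on untreated arrays, from 11.64 through 11.80 to 12.11 on GL2 arrays and from 10.68 through 11.11 to 11.30 on dystrophin siRNA arrays. The GL2 arrays were the group apart. GL2 siRNA lay wholly above untreated for 1.47% of all probes, and dystrophin siRNA wholly below GL2 siRNA for 1.26%. E2f2 rose by 0.56 with GL2 siRNA against untreated (SE 0.12, adjusted p = 0.035), while dystrophin siRNA gave -0.18 against untreated (95% interval -0.44 to 0.07, adjusted p = 0.72). The rise against untreated did not pass once any single untreated array was left out (adjusted p = 0.085 to 0.12), nor once GL2 array 2, 4 or 6 was (0.054, 0.065 and 0.057).

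**Figure D5:**
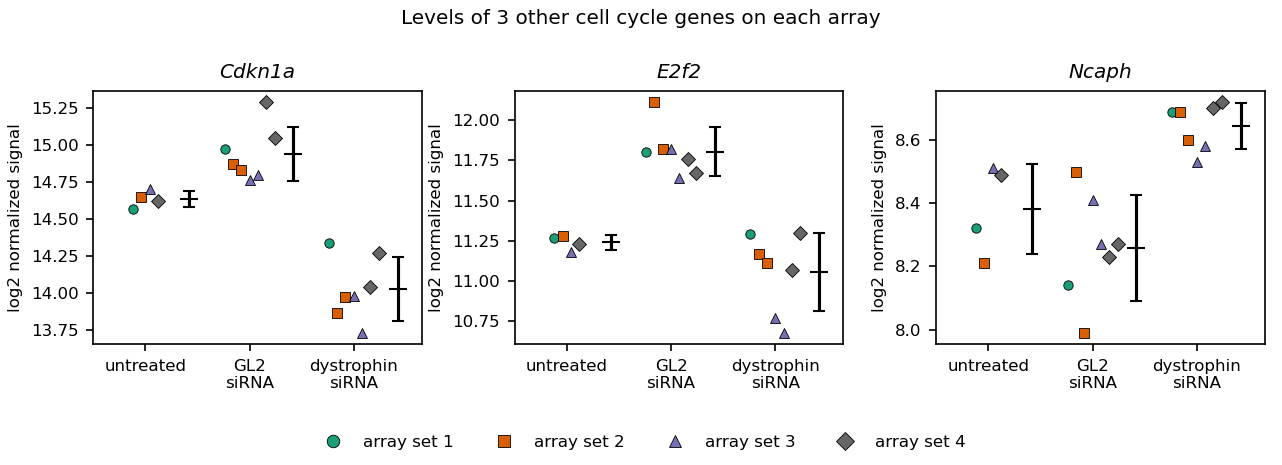
Log2 normalized signal of Cdkn1a, E2f2 and Ncaph on each array by group, with colour and shape giving the array set and bars the group mean ± SD. Cdkn1a is lowest with dystrophin siRNA (13.73 to 14.34), E2f2 highest with GL2 siRNA (11.64 to 12.11), and Ncaph highest with dystrophin siRNA (8.53 to 8.72).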

How the data were processed

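The authors deposited, for each of 18 bead arrays, a non-normalized bead signal (an intensity) and a detection p-value per probe, and a table of their own processed signal; the submitters' processing notes name lumi without a version. Here the intensity was background-corrected with the RMA model, put on the log2 scale and quantile-normalized, which came within a median of 0.0025 log2 units of the deposited signal, itself put on the log2 scale. Probe names came from the platform annotation (29976 of 46632 probes with 1 gene, 10 with several, 16646 with none). Arrays had 17551 to 18530 detected probes. Limma 3.58.1 (R 4.3.3) fitted the 3 groups together, with Benjamini-Hochberg adjustment over all probes and a threshold of 0.05. Scripts were tested on simulated data. The study's methods call the cultures biological replicates, and the labels do not give the occasion of each. The fits without a block treat the arrays of a group as independent, although cultures of 1 occasion shared a cell pool. The number of arrays limits the precision. The members and lists were chosen with earlier results of these data known. Members past the threshold were to be given with every array (at most 10), with other cell cycle genes and brakes past it (at most 5 each way), and Mki67, Top2a, Cdk1, Ccnb1, Mcm2 and Pcna in any case; members near the threshold and E2f2 were named after their values were seen. Same-numbered dystrophin and GL2 siRNA arrays deviated together (7 correlations of 0.35 to 0.51), while those of siRNA and untreated arrays did not in every pair (-0.08 to 0.28). Other backgrounds, scaling, filters, probes, blocks and left-out arrays were tried.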

Additional observations from a re-analysis of the deposited data

Results flagged for a closer look

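Over 96 groups of 4 or 7 arrays, 1 value stood outside its group by Dixon's criterion at the 95% level, which chance alone meets in about 1 group in 20. Mcm7, a helicase subunit, was at 9.71 on dystrophin siRNA array 6, while the other 6 arrays of that group lay between 9.37 and 9.51.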

How the results depend on the processing

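The limits are the 4 untreated arrays, the small changes and the adjustment over many probes that were never detected. The count of listed genes called with dystrophin siRNA against untreated, 0 in the reported fit, was 2 (Cdk1 and Aurka) with a normexp background (adjusted p = 0.016 and 0.033), with no background correction (0.015 and 0.032) and among the 19437 probes detected on at least 4 arrays (0.024 and 0.04), where 1.58%, 1.61% and 3.79% of the probes were called. Among those detected probes the count with GL2 siRNA against untreated was 1, Cdc45, which no untreated array detected and which passed the filter only through siRNA arrays, so that this call measures no change. Under these 3 settings 1 gene, E2f1, differed between array numbers (adjusted p = 0.023, 0.016 and 0.048). The brakes Cdkn2a (log2 change 0.25, 0.24 and 0.37) and Cdkn2d (-0.21, -0.20 and -0.23) were called under them with dystrophin siRNA against GL2 siRNA. Cdkn2d was also called with the sets as a block. Uhrf1, Cdca2 and Smc2 of the second list were called under them with dystrophin siRNA against untreated. With GL2 siRNA against untreated Smc2 was called under the first 2 settings. Of the other cell cycle genes, 4 were called with dystrophin siRNA against GL2 siRNA under the same 3 settings (5.59%, 5.65% and 14% of the probes tested), 3 with the sets as a block (5.87%), and 1 to 2 when 1 array was left out (2 without untreated array 1 or 4, GL2 array 3, 4 or 5, or dystrophin siRNA array 6). Same-numbered siRNA arrays were paired by a replicate block, which called 2 of those genes (1 of them, Melk, detected on 2 arrays) and 0 listed genes in all 3 comparisons (0.708%, 0.588% and 5.21% of all probes). The block also joined each untreated array with the siRNA arrays of its number. Those did not deviate together in every pair (correlations of -0.08 to 0.28), which limits its use in the 2 comparisons with untreated. The share of the 41-gene mean between sets was 53.7% with median centring, and 9.83% to 53.8% when 1 array was left out, with the sets found anew each time. Leaving out untreated array 1 took the median change of the list from 0.19 to 0.12 with dystrophin siRNA and from 0.10 to 0.03 with GL2 siRNA, and left 4 of 41 genes without overlap against untreated with dystrophin siRNA (2.01% of all probes), a count chosen after seeing the data. Median centring ended the calls of E2f2 with GL2 siRNA against untreated (adjusted p = 0.1), Cdkn2b (0.082) and Gadd45a (0.1), while Cdkn1a, E2f2 and Ncaph with dystrophin siRNA against GL2 siRNA were called in all 18 left-out fits. The genes followed through the alternatives (Cdk1, Aurka, Tyms, Birc5, Cdt1, Cenpe, Top2a, Mcm2, Pcna, E2f1, Cdkn1a, Smc2, E2f2, Ncaph, Cdkn2b and Gadd45a, each in the comparisons tested there) kept their sign. Other listed genes did change sign, since the number above 0 ran from 36 to 39, 28 to 37 and 30 to 35 in the 3 comparisons when 1 array was left out. Of the values for counts of called genes, medians and shares under all alternatives, 22 moved and 210 did not. The measure was the spread between replicates for medians and a fixed ratio for counts and shares. Single genes were tallied together with the numbers of genes above 0. Of these values, 573 kept their side of the threshold or stayed within the ratio, 36 lost the call and 12 gained it. The slide as a block was not run, since no slide was given in the headers.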
